A study of Rattus norvegicus with 6 samples.

Results

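The phosphoinositide 3-kinase (PI3K) subunits were followed in ovaries of neonatal Wistar rats after an immune challenge. The 10 genes considered were the catalytic subunits Pik3ca, Pik3cb, Pik3cd and Pik3cg, the regulatory subunits Pik3r1, Pik3r2 and Pik3r3, the class II enzymes Pik3c2a and Pik3c2b and the class III enzyme Pik3c3. They were chosen by name, and every array probe whose RefSeq transcript carries one of these symbols was kept. Of the 10 genes, 9 had such a probe, and together they had 14 of the 30367 probes measured. Pik3ca had 6 probes and each of the other 8 genes had 1. Pik3cg, the class IB catalytic subunit known mainly from leukocytes, had no matched probe and was not analysed here.

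Female pups received an intraperitoneal injection of lipopolysaccharide (LPS) from Salmonella at 0.05 mg/kg, or saline in the same volume. Injections fell on postnatal day (PND) 3 and again on PND 5, and the ovaries were frozen on PND 7. LPS is a cell wall component of Gram-negative bacteria that is sensed by Toll-like receptors. RNA of whole ovaries was hybridised to 6 single-colour Agilent arrays, 3 for LPS-treated and 3 for saline-treated animals. Whole litters were allocated to a treatment, and by the study's methods the RNA of a treatment came from few litters. Which animals lay behind each array was not given in the sources used here, so p-values measure the spread between these arrays and treatment cannot be told apart from litter.

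PI3Ks are lipid kinases that add a phosphate to inositol lipids of cell membranes. A class IA enzyme pairs a catalytic with a regulatory subunit that docks on activated receptor tyrosine kinases such as Kit, and its product PIP3 recruits Akt until lipid phosphatases remove it. In oocytes of primordial follicles this route, through Akt and the transcription factor Foxo3, is known for its control of follicle activation, while class III PI3K serves autophagy and endosome traffic.

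Signals are given as the log2 of the processed spot signal minus the 75th percentile of that array, so that 0 is the level of a fairly bright probe. Because probes differ in how they bind, levels are compared between arrays for the same probe and not between probes. A spot is called well above background by the flag of the scanner software. Of the 14 subunit probes, 8 met this mark on all 6 arrays and 3 on none, against 17585 and 8023 of all probes. By gene, the brightest probes of 6 of the 9 genes, namely Pik3ca, Pik3cb, Pik3r1, Pik3r2, Pik3c2b and Pik3c3, met it on every array.

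The arrays differed in ways that touch the values below. On the slide, 1 row held LPS replicate 1 together with the whole saline group, and the other row held LPS replicates 2 and 3. Marker transcripts of the adrenal gland were abundant on saline replicates 2 and 3. Summed as multiples of the array's 75th percentile, 8 markers of the adrenal cortex reached 299 and 392 on these arrays, against 6.25 on saline replicate 1 and 5.09 to 16.7 on the LPS arrays. For 7 measured markers of the adrenal medulla the sums were 80.1 and 52.4, against 5.10 on saline replicate 1 and 2.53 to 4.85 on the LPS arrays. The ovary label was borne out by its markers, since all 8 measured oocyte genes and 6 of 8 granulosa genes were well above background on every array. In whole tissue, fewer cells of a type and less RNA per cell cannot be told apart.

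Among the subunits, Pik3r1 and Pik3c2a had higher signals in every LPS array than in any saline array, whereas the brightest probes of the class IA catalytic subunits Pik3ca and Pik3cb, the regulatory subunit Pik3r2 and the class III enzyme Pik3c3 each lay within 0.16 of equality on the log2 scale. Dimmer probes of Pik3ca lay farther from it, in both directions. In limma, 2 of the 14 probes, those of Pik3r1 and Pik3c2a, were higher at an unadjusted p under 0.05, against 2.46% of all probes, and 0 were lower, against 14.1%. The background shares turned with the processing, from 746 probes higher and 4272 lower as reported to 1606 and 238 with no scaling between arrays, 802 and 688 with quantile normalization and 2093 and 183 with slide row as a block, so the 0 lower is no contrast with the rest of the array. At a 2-fold difference with an unadjusted p under 0.05, 1 probe was counted as higher, against 0.613% of all probes, and 0 as lower, against 1.08%. The probe was that of Pik3c2a, which was well above background on no saline array, so this count rests on an unmeasured level. Among the 8 subunit probes that met the background mark on every array, 1 was higher, against 1.69% of all such probes, and 0 were lower, against 2.39%. After Benjamini-Hochberg adjustment over all probes, limma called 0 subunit probes and 0 probes in all, and the smallest adjusted p was 0.271. The median difference over the 14 probes was -0.02 on the log2 scale, with 7 of them positive. Over all probes the median was -0.04, with 44.8% positive.

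**Figure D1:**
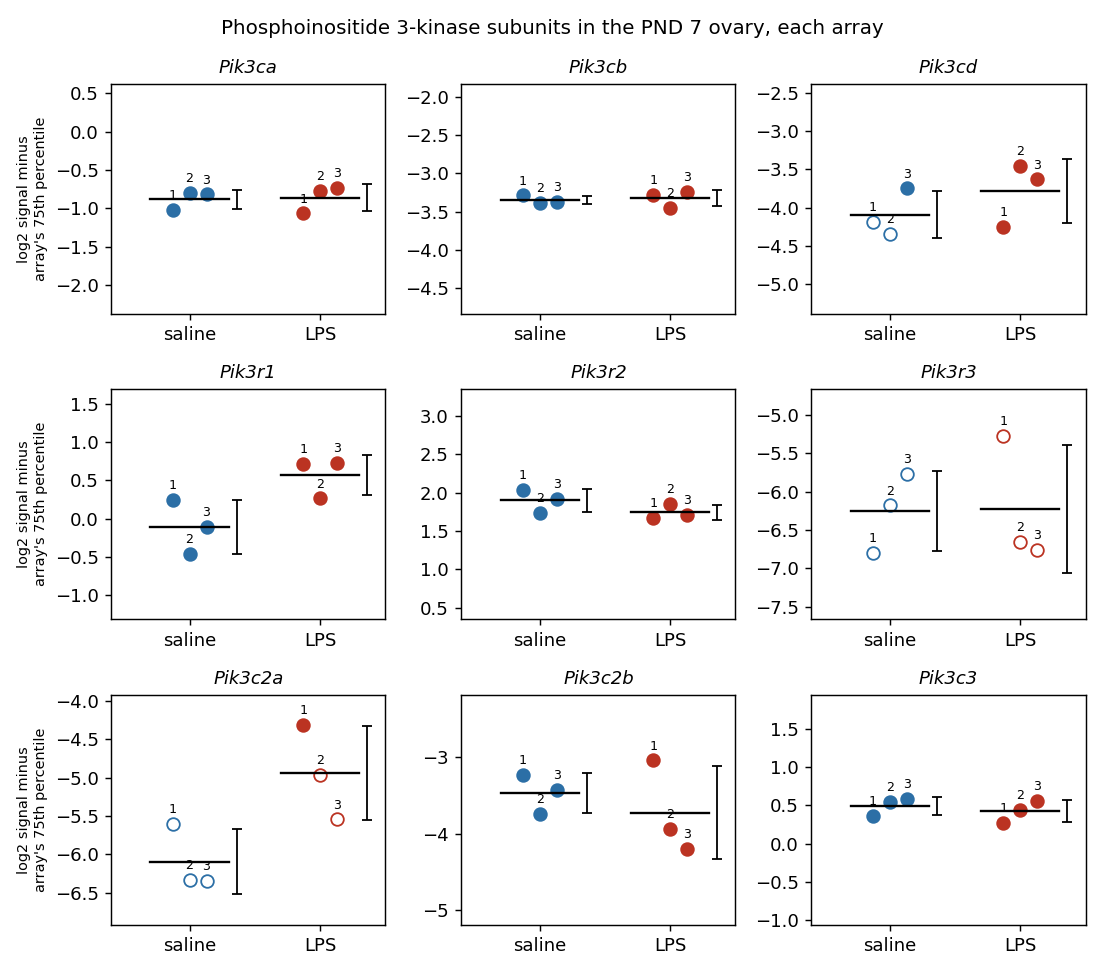
Log2 signal minus the array's 75th percentile (y axis) of the brightest probe of each measured subunit in saline and LPS arrays (x axis). Points are arrays with their replicate number, filled where the spot was well above background, black lines are group means and bars are SD (n = 3), and every panel spans the same range. Pik3r1 and Pik3c2a are the panels in which the groups do not overlap, and the Pik3c2a points are open on 5 of 6 arrays.

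The class IA catalytic subunits showed no difference at an unadjusted p under 0.05. Pik3ca, the alpha catalytic subunit found in most cells, was printed 10 times on each array in its brightest probe, here probe 1. The LPS arrays read -1.07, -0.78 and -0.74 and the saline arrays -1.03, -0.80 and -0.82. Both groups held 1 low and 2 higher arrays, and the low array was replicate 1 in each. The difference was 0.02 on the log2 scale with an SE of 0.18 and a 95% confidence interval of -0.40 to 0.44 in limma. The SD between the 10 spots of an array was 0.03 to 0.10 on the log2 scale, so the replicate spots repeated more closely than the arrays of a group, whose SDs were 0.18 for LPS and 0.12 for saline.

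Pik3ca probe 2 gave -1.14, -1.17 and -0.86 in the LPS group and -0.94, -0.94 and -1.12 in the saline group. The groups overlapped, with a difference of -0.06 (SE 0.17). Pik3ca probe 3 gave -2.11, -3.79 and -4.09 in the LPS group and -2.54, -3.00 and -2.81 in the saline group. The LPS arrays thus lay on both sides of the saline arrays, and LPS replicate 1, which shared its slide row with the saline arrays, was the highest of all 6. The difference was -0.54 (SE 0.51) over all arrays, and it was 0.67 with slide row as a block, which rests on LPS replicate 1 alone. Without LPS replicate 1, it was -1.15 with an unadjusted p of 0.0021 in limma.

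The dimmer probes of Pik3ca gave no common direction. Pik3ca probe 4, well above background in the whole LPS group and 2 saline arrays, differed by 0.30 (SE 0.25) with overlapping groups. Pik3ca probe 5 was well above background on no array and its groups overlapped. Pik3ca probe 6, also well above background on no array, gave -6.97, -6.92 and -7.44 in the LPS group and -6.82, -6.28 and -6.63 in the saline group. These groups did not overlap, a pattern that 18.4% of all probes showed in this direction, and since neither group was measured above background no fold is given. Its unadjusted p was 0.055 in limma and 0.042 with the replicate number as a block, which makes it the 1 subunit probe called lower in the blocked fit.

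**Figure D2:**
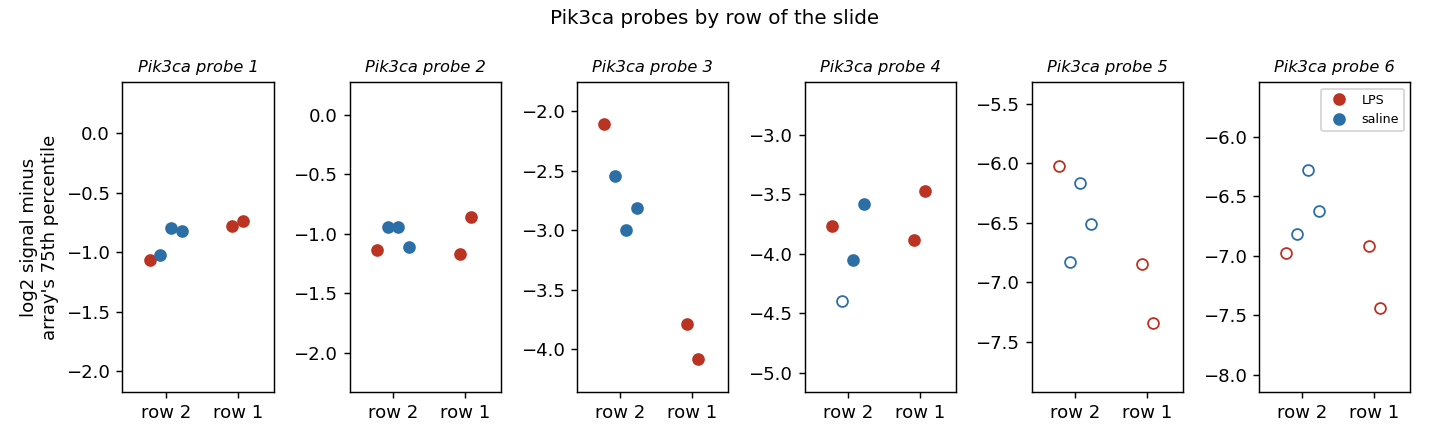
Log2 signal minus the array's 75th percentile (y axis) of the 6 Pik3ca probes by slide row (x axis). Points are arrays, red for LPS and blue for saline, filled where well above background, and every panel spans the same range. In probe 3 the 2 LPS arrays of row 1, at -3.79 and -4.09, lie below all 4 arrays of row 2, which include the third LPS array.

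Pik3cb, the beta catalytic subunit, which can also act downstream of G protein-coupled receptors, had the smallest SE of the 14 probes. Its LPS arrays read -3.28, -3.45 and -3.24 and its saline arrays -3.29, -3.39 and -3.37. The LPS arrays enclosed the saline arrays, and the difference was 0.03 (SE 0.16, 95% confidence interval -0.35 to 0.40). Pik3cd, the delta catalytic subunit known from leukocytes, gave -4.25, -3.46 and -3.63 in the LPS group and -4.18, -4.34 and -3.75 in the saline group. It was well above background in the whole LPS group but on 1 saline array, and the difference of 0.31 (SE 0.28) did not pass the test, with an unadjusted p of 0.296 in limma. LPS replicates 2 and 3, in a slide row of their own, were above the other 4 arrays, and LPS replicate 1, in the row of the saline arrays, lay 0.16 below their mean. The summed signal of 7 measured leukocyte markers ranged from 2.45 to 3.12 in the LPS group and from 2.28 to 2.96 in the saline group, and 0 of the 7 passed at an unadjusted p under 0.05.

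Among the regulatory subunits, Pik3r1 was the 1 that separated the groups. Pik3r1 encodes p85alpha and its shorter forms, which stabilise the catalytic subunits and bring them to receptors. The LPS arrays read 0.72, 0.27 and 0.73 and the saline arrays 0.25, -0.45 and -0.11. Every LPS array was above every saline array, by a gap of 0.02 between LPS replicate 2 and saline replicate 1, an ordering that 5.02% of all probes showed. The mean difference was 0.68 (SE 0.25, 95% confidence interval 0.09 to 1.26), a 1.60-fold higher signal. Its unadjusted p in limma was 0.029 and its adjusted p 0.276, and an exact permutation test over the 6 arrays gave 0.1, the smallest p that 3 against 3 arrays allow.

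The Pik3r1 difference varied with the arrays that were kept. Without both saline replicates 2 and 3, the arrays with adrenal transcripts, it was 0.33. That value rests on saline replicate 1 alone, the highest of the saline arrays at 0.25. Leaving out a single array gave 0.50 to 0.85, and the unadjusted p was above 0.05 when LPS replicate 1 (0.073), LPS replicate 3 (0.084), saline replicate 2 (0.095) or saline replicate 3 (0.071) was absent. With slide row as a block the difference was 0.82 with an unadjusted p of 0.059 in limma, and an equal-variance test of the probe alone gave 0.055. The normexp background correction gave 0.75 (unadjusted limma p 0.0019), and no background correction gave 0.69 (0.0011). With the replicate number as a block the unadjusted limma p was 0.0092. Macrophage markers summed to 10.9 to 11.1 in the LPS group and to 8.65 to 10.4 in the saline group. Of these 10 markers 4 were higher at an unadjusted p under 0.05 in limma, against 2.45% of all named genes. The 4 include Mrc1, which was well above background on no saline array. None of the 10 was lower, against 13.2% of all named genes and 2.39% of probes well above background on every array. C1qa (-0.07), Cd163 (-0.16) and Cd68 (-0.16) had negative differences. Of 3 measured red blood cell markers 2 were lower, against the same 13.2%. Their sums were 24.2 to 38.5 in the LPS group and 37.4 to 53.0 in the saline group. Oviduct and epithelial markers summed to 43.6 on LPS replicate 1 and 42.1 on saline replicate 1, against 15.6 to 24.4 on the other arrays. The part of adrenal or these other cells in the Pik3r1 difference was not tested.

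Pik3r1 and Pik3c2a are the subunits for which the study also designed qRT-PCR primers, on the same RefSeq transcripts as their array probes. The primers are shown because they mark the transcripts that the study followed by a second method, whose measurements were not analysed here.
Pik3r1 forward: ccctcagtggacttggatgt
Pik3r1 reverse: cggagcttggtacttcttgg
Pik3c2a forward: tttccaccccttacttcgtg
Pik3c2a reverse: tgccatttcggtaagaaacc

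The promoters of the same 2 genes are shown because these are the subunits whose groups separated upwards. They are the 250 bases before the annotated start in RefSeq's GRCr8 assembly, read 5′ to 3′ along the gene, and capitals mark the Sp1 GC box (GGGCGG on either strand). The windows are chr2:34697661-34697910 on the minus strand for Pik3r1 and chr1:180117774-180118023 on the minus strand for Pik3c2a.
Pik3r1 promoter: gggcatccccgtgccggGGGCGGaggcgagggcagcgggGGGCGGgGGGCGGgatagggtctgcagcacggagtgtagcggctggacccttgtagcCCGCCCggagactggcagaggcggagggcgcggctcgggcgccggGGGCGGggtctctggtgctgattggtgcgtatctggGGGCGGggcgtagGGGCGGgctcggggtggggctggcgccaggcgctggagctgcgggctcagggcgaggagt
Pik3c2a promoter: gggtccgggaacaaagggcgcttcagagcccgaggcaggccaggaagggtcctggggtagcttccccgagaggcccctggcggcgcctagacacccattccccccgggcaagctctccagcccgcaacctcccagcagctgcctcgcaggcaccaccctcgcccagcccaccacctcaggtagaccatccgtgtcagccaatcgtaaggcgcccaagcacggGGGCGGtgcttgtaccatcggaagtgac

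The Pik3r1 window held 7 GC boxes and 77.2% G and C bases, and the Pik3c2a window held 1 GC box and 68% G and C, against a median of 51.2% over 33469 such windows. A GC box is common, being present in 30.5% of all windows, and 2 were also found in each of the windows of Pik3r2 and Pik3c3, whose signals did not separate the groups. Those windows held 68% G and C for Pik3r2, the same as for Pik3c2a, and 55.6% for Pik3c3. Neither printed window held the NF-kappaB consensus (present in 3.54% of all windows), the AP-1 site TGACTCA (4.05%), the forkhead site TGTTTAC (3.22%) or the E-box CACGTG (5.59%) on either strand. The motifs that were found did not overlap each other. The windows of Pik3cb and Pik3c2b were not analysed here. Of the other subunits, Pik3r3 held 1 match to the NF-kappaB consensus and Pik3ca 1 forkhead site. These letters describe the windows and were not tested against binding.

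Pik3r2, the beta regulatory subunit, gave 1.67, 1.85 and 1.72 in the LPS group and 2.04, 1.74 and 1.92 in the saline group. The groups overlapped, and the difference was -0.16 (SE 0.17, 95% confidence interval -0.56 to 0.24), an interval that leaves out an increase of the size fitted for Pik3r1. Pik3r3, the gamma regulatory subunit, was well above background on no array, and its LPS arrays, from -6.76 to -5.27, overlapped the saline arrays, from -6.80 to -5.77.

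Pik3r1 was also set against the class IA catalytic subunits within arrays, where the scaling between arrays cancels. The log2 signal of Pik3r1 minus the mean of Pik3ca and Pik3cb was 2.89, 2.38 and 2.72 in the LPS group and 2.40, 1.64 and 1.99 in the saline group. LPS replicate 2 lay just below saline replicate 1, and the groups overlapped by this pair. The mean difference of 0.65 had an exact two-sided permutation p of 0.2.

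**Figure D3:**
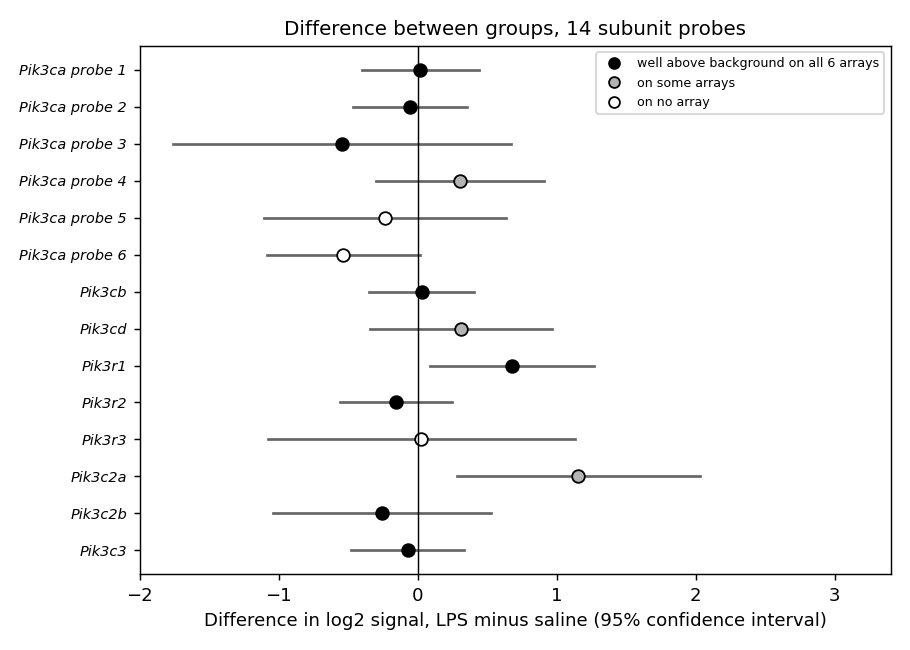
Difference in log2 signal between LPS and saline arrays (x axis) for the 14 subunit probes (y axis), as points with 95% confidence intervals from limma over 3 arrays a group. Points are black where the probe was well above background on all 6 arrays, grey where on some and white where on none. The intervals of Pik3r1, 0.09 to 1.26, and of Pik3c2a, 0.28 to 2.03, lie above 0.

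Pik3c2a, a class II enzyme that acts in clathrin-coated vesicles and endosomes, gave the largest fitted difference of the 14 probes and was well above background on 1 array. The LPS arrays read -4.31, -4.97 and -5.54 and the saline arrays -5.61, -6.33 and -6.35. Again every LPS array exceeded every saline array, by a gap of 0.064, but only LPS replicate 1 was well above background. The fitted difference in processed signal was 1.16 (SE 0.37), with an unadjusted p of 0.017 and an adjusted p of 0.271 in limma. Set against the dimmest signal that counted as well above background on the saline arrays, the bound on the fold was 0.711 and thus under 1, so no fold is given.

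The size of the Pik3c2a difference depended on how the background was treated. With the normexp correction in place of the subtraction by the scanner software it was 0.13, with an unadjusted p of 0.474 in limma. With no background correction it was 0.02, with an unadjusted p of 0.89. Without saline replicate 2 or saline replicate 3 the unadjusted p was 0.055 and 0.059, and without both it was 0.271 at a difference of 0.67. With slide row as a block, which leaves LPS replicate 1 alone against the saline arrays, it was 1.78.

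**Figure D4:**
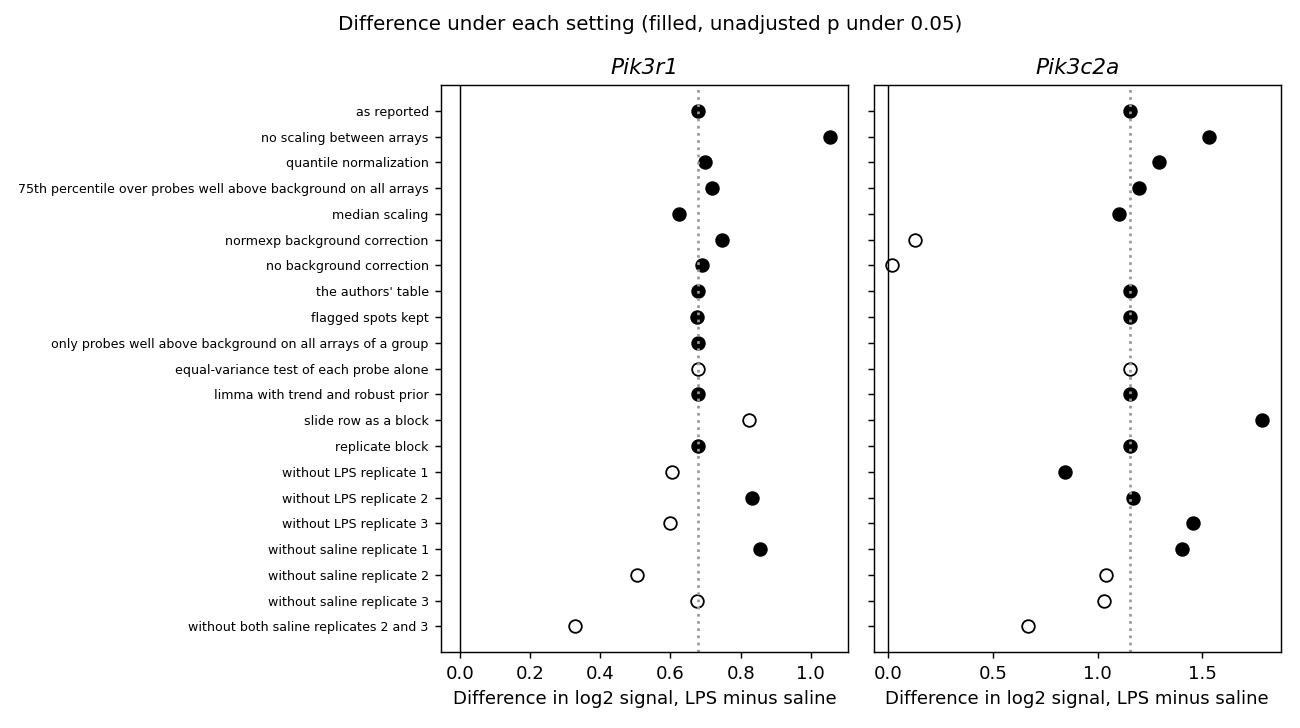
Difference in log2 signal between LPS and saline arrays (x axis) for Pik3r1 and Pik3c2a under each processing setting (y axis), with the dotted line at the value reported. Points are filled where the unadjusted p was under 0.05. Pik3r1 stays between 0.33 and 1.05, whereas Pik3c2a runs from 0.02 with no background correction to 1.78 with slide row as a block.

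Pik3c2b, the other class II enzyme measured, met the background mark on every array. Its LPS arrays read -3.04, -3.93 and -4.19 and its saline arrays -3.24, -3.74 and -3.43. LPS replicate 1 was the highest array and LPS replicates 2 and 3 were the lowest, as in Pik3ca probe 3. The difference was -0.26 (SE 0.33), and it was 0.42 with slide row as a block. Without LPS replicate 1 it was -0.60, with an unadjusted p of 0.041 in limma.

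The split by slide row was not particular to these probes. The arrays of the rows did not overlap for 5 of the 14 subunit probes, those of Pik3ca probes 1, 3 and 5, Pik3cd and Pik3c2b. Over all probes measured on every array the share was 31.4%, and among probes that met the background mark on every array it was 25.3%.

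Pik3c3, the class III catalytic subunit that starts autophagosome formation with its partners, gave 0.27, 0.45 and 0.56 in the LPS group and 0.36, 0.54 and 0.59 in the saline group. In both groups replicate 1 was the lowest array and replicate 3 the highest, and the groups overlapped. The difference was -0.07 (SE 0.17, 95% confidence interval -0.48 to 0.33).

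Around the subunits, 64 genes of the pathway were considered, of which 57 had a probe and 46 met the background mark on every array. With 1 probe per gene, the brightest, 2 were higher at an unadjusted p under 0.05 (Irs1 and Kitlg), against 2.45% of all named genes. Another 2 were lower (Uvrag and Mtm1), against 13.2%. Among all probes that met the background mark on every array, 1.69% were higher and 2.39% lower. Kitlg and Mtm1 met that mark on every array, and Irs1 and Uvrag did not. None of the 57 differed 2-fold with an unadjusted p under 0.05 or passed after adjustment in limma, which called 4 of them at an unadjusted p under 0.05. With the replicate number as a block, 4 were higher and 3 lower. The median difference over the 57 genes was -0.01, beside -0.03 over all named genes.

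Of the 11 upstream ligands and receptors, 9 had a positive difference, beside 44.8% of all probes, and the median was 0.32 on the log2 scale. Such sign counts depend on the scaling between arrays. With no scaling the median of all probes was 0.34, against -0.04 as reported. The 9 include Tlr4, which was well above background on no saline array. Kitlg, the ligand of the oocyte receptor Kit, had 3 probes, of which only the brightest is reported here. It gave 1.19, 1.41 and 1.37 in the LPS group and 0.54, 0.76 and 0.97 in the saline group. The groups did not overlap, an ordering that 5.02% of all probes showed in this direction. The difference was 0.57 (SE 0.18), with an unadjusted p of 0.019 and an adjusted p of 0.271 in limma. The unadjusted p for Kitlg was 0.152 with slide row as a block, 0.051 with median scaling, and 0.074, 0.052 and 0.050 without LPS replicate 2, LPS replicate 3 or saline replicate 1, while without both saline replicates 2 and 3 the difference was 0.79 with an unadjusted p of 0.031. Its receptor Kit gave -1.73, -1.25 and -1.01 in the LPS group and -1.92, -2.31 and -1.30 in the saline group. Both groups were lower in replicates 1 and 2 than in replicate 3, and the difference of 0.51 (SE 0.32) did not pass, with an unadjusted p of 0.155.

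Among the 7 measured class I adaptors and modulators, the median was 0.28 and 1 passed. This was Irs1, which links insulin and IGF1 receptors to p85, and which was well above background on 2 LPS arrays and on no saline array. Its bound on the fold was 0.932, under 1, so no fold is given. Gab1, a docking protein for the same regulatory subunits, gave -3.08, -2.83 and -2.54 in the LPS group and -3.47, -3.79 and -3.02 in the saline group, a difference of 0.61 (SE 0.26) with an unadjusted p of 0.052. Irs2 differed by -0.55 (SE 0.37) and was higher on saline replicates 2 and 3, at -0.51 and -1.19, than on saline replicate 1, at -1.98.

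Of 10 phosphoinositide phosphatases and other lipid kinases, 2 had a positive difference, beside 44.8% of all probes, and the median was -0.13. This sign count also depends on the scaling, and the 44.8% includes dim probes. Over probes that met the background mark on every array the median was 0.02. Mtm1, a phosphatase that removes the class II and class III products, gave -2.12, -2.08 and -1.97 in the LPS group and -1.73, -1.55 and -1.56 in the saline group. The groups did not overlap, an ordering that 18.4% of all probes showed in this direction. The difference was -0.45 (SE 0.16), with an unadjusted p of 0.027 and an adjusted p of 0.274 in limma. The unadjusted p for Mtm1 was 0.072 with slide row as a block and 0.242 without both saline replicates 2 and 3, where the difference was -0.33. It lay between 0.067 and 0.093 without LPS replicate 1, LPS replicate 2, saline replicate 2 or saline replicate 3, at 0.061 with normexp and 0.064 with no background correction, and with no scaling between arrays the difference was -0.07. Inppl1, a phosphatase of PIP3, differed by -0.57 (SE 0.35) and was, like Irs2, higher on saline replicates 2 and 3, at 0.75 and 0.71, than on saline replicate 1, at -0.33.

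The 6 measured genes listed as class II and class III partners had a median of 0.00. They include Pik3c2g, itself a class II enzyme, which was well above background on no array. Uvrag, a partner of Pik3c3 in endosome traffic, was the 1 that passed and was well above background on no array, so its value is no measured change. Becn1, the autophagy partner of Pik3c3, differed by -0.14 (SE 0.19), and Nrbf2 of the same complex by 0.09 (SE 0.27).

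Downstream, the 12 Akt and mTOR genes had a median of -0.02 and 0 passed at an unadjusted p under 0.05. Akt1 differed by 0.05 (SE 0.22) and Akt2 by 0.16 (SE 0.18), both with overlapping groups. Rptor and Phlpp1, the other 2 genes named by rule in this list, differed by -0.19 (SE 0.16) and 0.17 (SE 0.17).

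The 11 measured genes listed as Akt targets or further downstream had a median of -0.05, and 0 passed at an unadjusted p under 0.05. Foxo3, the transcription factor that keeps primordial follicles at rest, gave -2.50, -1.98 and -1.99 in the LPS group and -2.15, -2.48 and -2.03 in the saline group. The groups overlapped, and the difference was 0.06 (SE 0.23). Cdkn1b, a cell cycle inhibitor that Akt restrains, gave 1.14, 1.39 and 1.54 in the LPS group and 0.98, 0.90 and 0.99 in the saline group. These groups did not overlap, an ordering that 5.02% of all probes showed in this direction. The Cdkn1b difference of 0.40 (SE 0.17) had an unadjusted p of 0.057 in limma. Gsk3b differed by -0.16 (SE 0.23).

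**Figure D5:**
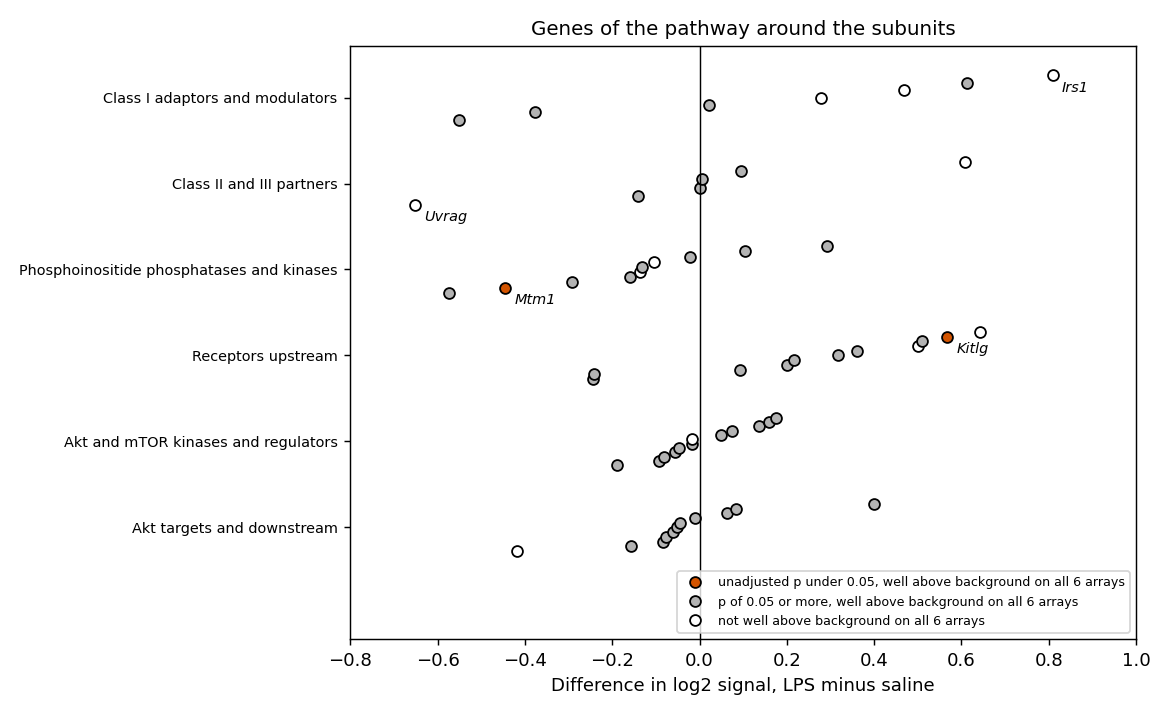
Difference in log2 signal between LPS and saline arrays (x axis) for the 57 measured genes of the pathway in 6 lists (y axis), 1 probe per gene, 3 arrays a group. Points are orange where the unadjusted p was under 0.05 and the probe well above background on all 6 arrays, grey where only the latter held and white otherwise. The named points are the 4 genes at an unadjusted p under 0.05, and of these only Kitlg and Mtm1 were well above background on all arrays.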

How the data were processed

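Ovarian RNA was measured on 6 single-colour Agilent arrays, 3 per treatment, grouped by the treatment and replicate number of their labels. The authors deposited, per array, spot intensities from Agilent Feature Extraction 10.5.1.1, and a table that holds the same processed signal within 0.497%. The submitters' processing notes also name lumi, with no role. The processed signal is background-subtracted, with a surrogate value for the dimmest spots.

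The log2 processed signal minus the array's 75th percentile was computed after flagged spots were removed and spots of a probe averaged. Probes needed 2 unflagged arrays per group. limma 3.58.1 in R 4.3.3 (lmFit, eBayes) compared the treatments over 30367 probes, with Benjamini-Hochberg adjustment. The study names a 2-fold difference at p under 0.05. The script was tested on simulated data. RefSeq accessions gave a symbol for 17998 probes (15154 symbols) through a GRCr8 table, used for names only. Promoter windows came from RefSeq, primers from the study.

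Subunits and lists were chosen with earlier results of these data known. Per pathway list, up to 4 genes at an unadjusted p under 0.05 and well above background on every array of 1 group were named, or, if fewer than 2 passed, the 2 with the largest difference among those well above background on all arrays. Akt1, Akt2 and Foxo3 were always named. Another 2 listed genes are not reported here and were left out of the pathway counts. Irs1, Uvrag and Pik3c2g were named after their values were seen.

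For replicate numbers 1, 2 and 3, the deviations of the LPS and saline arrays from their groups correlated across probes at 0.298, 0.215 and 0.254, so the number was also fitted as a block. For arrays of unlike number the correlations ran from -0.271 to 0.160, the latter for LPS replicate 2 with saline replicate 3. Nothing else in the sources used here gives a pairing. The number of arrays limits the precision. Alternatives covered background correction, scaling, filters, test, slide row, replicate block and each array left out.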

Additional observations from a re-analysis of the deposited data

How the results depend on the processing

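The subunit probes called higher (2 as reported) were 1 with normexp, with no background correction, with the filter on dim probes and with slide row as a block, and 0 with an equal-variance test of each probe alone and without both saline replicates 2 and 3. They were 0 to 2 when 1 array was left out. Those called lower (0) were 1 with median scaling and with the replicate block, and 0 to 2 with an array left out. At 2-fold, those higher (1) were 2 with no scaling, 0 with normexp, no background correction, the filter, the equal-variance test or without both saline replicates, and 0 to 1 with an array left out, and those lower (0) were 0 to 1. No setting gave a subunit probe past adjustment, while all probes past it ranged from 0 to 290. The pathway genes higher (2) were 7 with no scaling, 5 with the percentile over bright probes, 4 with the filter and with the replicate block, 1 with median scaling and without both saline replicates and 1 to 6 with an array left out. Those lower (2) were 0 with no scaling, with slide row as a block and without both saline replicates, 1 with quantile normalization, normexp, no background correction and the filter, and 0 to 3 with an array left out. The replicate block changed no other call among the subunits. The causes were not tested.

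The sign of small differences turned. No scaling, which moves the median of all probes from -0.04 to 0.34, gave 0.32 for Pik3ca probe 2, 0.14 for probe 5, 0.22 for Pik3r2, 0.12 for Pik3c2b and 0.30 for Pik3c3. Quantile normalization gave -0.015 for Pik3ca probe 1, 0.12 for probe 5, 0.060 for probe 6 and -0.041 for Pik3cb. Median scaling gave -0.034 for Pik3ca probe 1, -0.026 for Pik3cb and -0.028 for Pik3r3. Normexp gave -0.015 for Pik3ca probe 1, -0.090 for Pik3cb and -0.11 for Pik3r3. No background correction gave -0.020 for Pik3ca probe 1, -0.015 for probe 4, -0.088 for Pik3cb, -0.036 for Pik3cd and -0.11 for Pik3r3. Slide row as a block gave -0.19 for Pik3ca probe 1, 0.67 for probe 3, 0.48 for probe 5, -0.16 for Pik3cd and 0.42 for Pik3c2b. Without both saline replicates 2 and 3 the values were 0.095 for Pik3ca probe 5, -0.034 for Pik3cb and 0.062 for Pik3c3. Leaving out 1 array at a time, Pik3ca probe 1 ran from -0.053 to 0.12, probe 2 from -0.15 to 0.00055, probe 5 from -0.59 to 0.067, Pik3cb from -0.013 to 0.089, Pik3r3 from -0.45 to 0.29 and Pik3c3 from -0.14 to 0.0027. Pik3r1 and Pik3c2a were positive under every setting run. Dim signals limit Pik3c2a, Pik3r3 and Pik3ca probes 5 and 6, which background handling can set.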
